A study of Homo sapiens with 4 samples.

Results

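Glycolysis and hypoxia response genes were followed in 2 human lung cancer cell lines in which TAZ, the transcriptional co-activator encoded by WWTR1, was silenced. The set was a list of 42 genes, matched by gene symbol to probe sets that carry a single symbol in the platform's annotation. This gave values for 38 of the 42, each from 1 probe set, of 18377 named genes in all. PGAM1 had shared probe sets alone, and SLC16A1, SLC16A3 and CA9 matched no single-symbol probe set, so these 4 are not analysed here. A549 and H441, both lung adenocarcinoma lines under standard growth conditions, received siNTC, the control siRNA, or siTAZ, and RNA was taken 48 h after this lipid transfection. The 4 groups were thus A549 siNTC, A549 siTAZ, H441 siNTC and H441 siTAZ, with 1 Affymetrix array apiece and no other agent named in the labels. The sources used here do not give the siRNA sequences. Values are log2 signals from the authors' RMA, which summarises the probes of a probe set. A difference is the siTAZ value less the siNTC value, in log2 units, unless stated otherwise. RMA compresses the differences of dim probe sets, so folds of dim genes are understated.

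Glycolysis splits glucose into pyruvate, with a preparatory phase that spends ATP and a payoff phase that yields ATP and NADH, and lactate dehydrogenase turns pyruvate into lactate. Under low oxygen the prolyl hydroxylases slow down, HIF-1 alpha and HIF-2 alpha are spared from degradation, and with their partner ARNT they raise glucose transporters, most glycolytic enzymes, VEGFA and other targets through short DNA elements with an RCGTG core. Many tumour cells keep this programme on in normal oxygen. TXNIP and ARRDC4 are alpha-arrestins that lower glucose uptake and are themselves raised by glucose through the factor MondoA. TAZ and its paralog YAP bind DNA through TEAD factors.

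WWTR1 itself checked the labels. Its log2 signal went from 10.04 under siNTC to 7.64 under siTAZ in A549 and from 9.61 to 7.47 in H441, which left 19.0% and 22.7% of the control signal. Array medians lay between 6.05 and 6.25. Of 6 epithelial markers, the keratin genes KRT7, KRT8 and KRT18 were above 11 on the 4 arrays. EPCAM was 6.65 and 6.74 in A549 against 12.13 in H441 with siNTC. CDH1 and KRT19 were also lower in A549. CDH1 was 8.68 and 8.96 there and 12.27 and 12.20 in H441, and KRT19 was 8.95 and 8.66 against 12.99 and 12.85. Of 5 alveolar markers, the lineage factor NKX2-1 was 5.02 and 5.01 in A549, below the median of the whole table (6.13), and 9.14 and 9.57 in H441. NAPSA and SFTPB were likewise below that median in A549 and above it in H441, SFTPC was at 6.36 and 5.98 in A549 and 5.84 and 5.71 in H441, and SFTPD lay between 6.33 and 6.46 on the 4 arrays. Of 10 leukocyte, endothelial and fibroblast markers, 5 lay below that median on each array, and their summed linear signal was 880 and 934 in A549 and 2035 and 2109 in H441. The 6 epithelial markers were at lower signal with siTAZ for 4 of 6 in A549 (median -0.27) and 6 of 6 in H441 (median -0.16). Over all genes it was 5518 of 11405 in A549 and 5809 of 11911 in H441. The 4 alveolar markers above the table median in H441 were all at higher signal with siTAZ there (median 0.37), beside 50.8% of all genes. They were SFTPB (0.67), NKX2-1 (0.43), NAPSA (0.30) and SFTPD (0.01). With each array centred on its median, 3 of the 4 were higher, beside 33.2% of all genes. It was also 3 of the 4 after quantile normalization (beside 53.1%) and after cyclic loess (beside 51.5%). In A549 the 2 that reached the table median were SFTPC (-0.38) and SFTPD (0.04). The limma test described next called 0 markers of either list, beside 1.19% of all genes higher and 1.29% lower. An unadjusted p under 0.05 was reached by 3 epithelial and 2 alveolar markers, beside 13.2% of all genes. The part of these markers in the results below was not tested. In such bulk RNA, fewer cells of a type and less RNA per cell cannot be told apart. No group has a replicate, so a difference within a line has no error of its own. Over both lines limma was fitted with the line as a block, which leaves 1 residual degree of freedom, and its standard error (SE) draws mostly on a prior from all genes. A call means a limma Benjamini-Hochberg adjusted p under 0.05 over the 12740 genes tested, 2 lines with no repeat within either.

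After siTAZ, 2 of the 38 glycolysis and hypoxia genes rose over both lines, ENO2 and ALDOC, and 0 fell. Over all 12740 genes the calls were 1.19% higher and 1.29% lower. An unadjusted limma p under 0.05 was reached by 7 of the 38 members (ENO2, ALDOC, VEGFA, P4HA2, BNIP3L, PFKFB4 and ADM), or 18.4%, beside 13.2% of all genes tested. This count depended on the scaling: it was 4 of 38 (10.5%, beside 13.1%) after each array was centred on its median, 6 (15.8%, beside 12.6%) after quantile normalization and 5 (13.2%, beside 11.8%) after cyclic loess. The responses were small. The median absolute difference of the members was 0.10 in A549 and 0.12 in H441, beside 0.13 in either line for all genes.

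**Figure D1:**
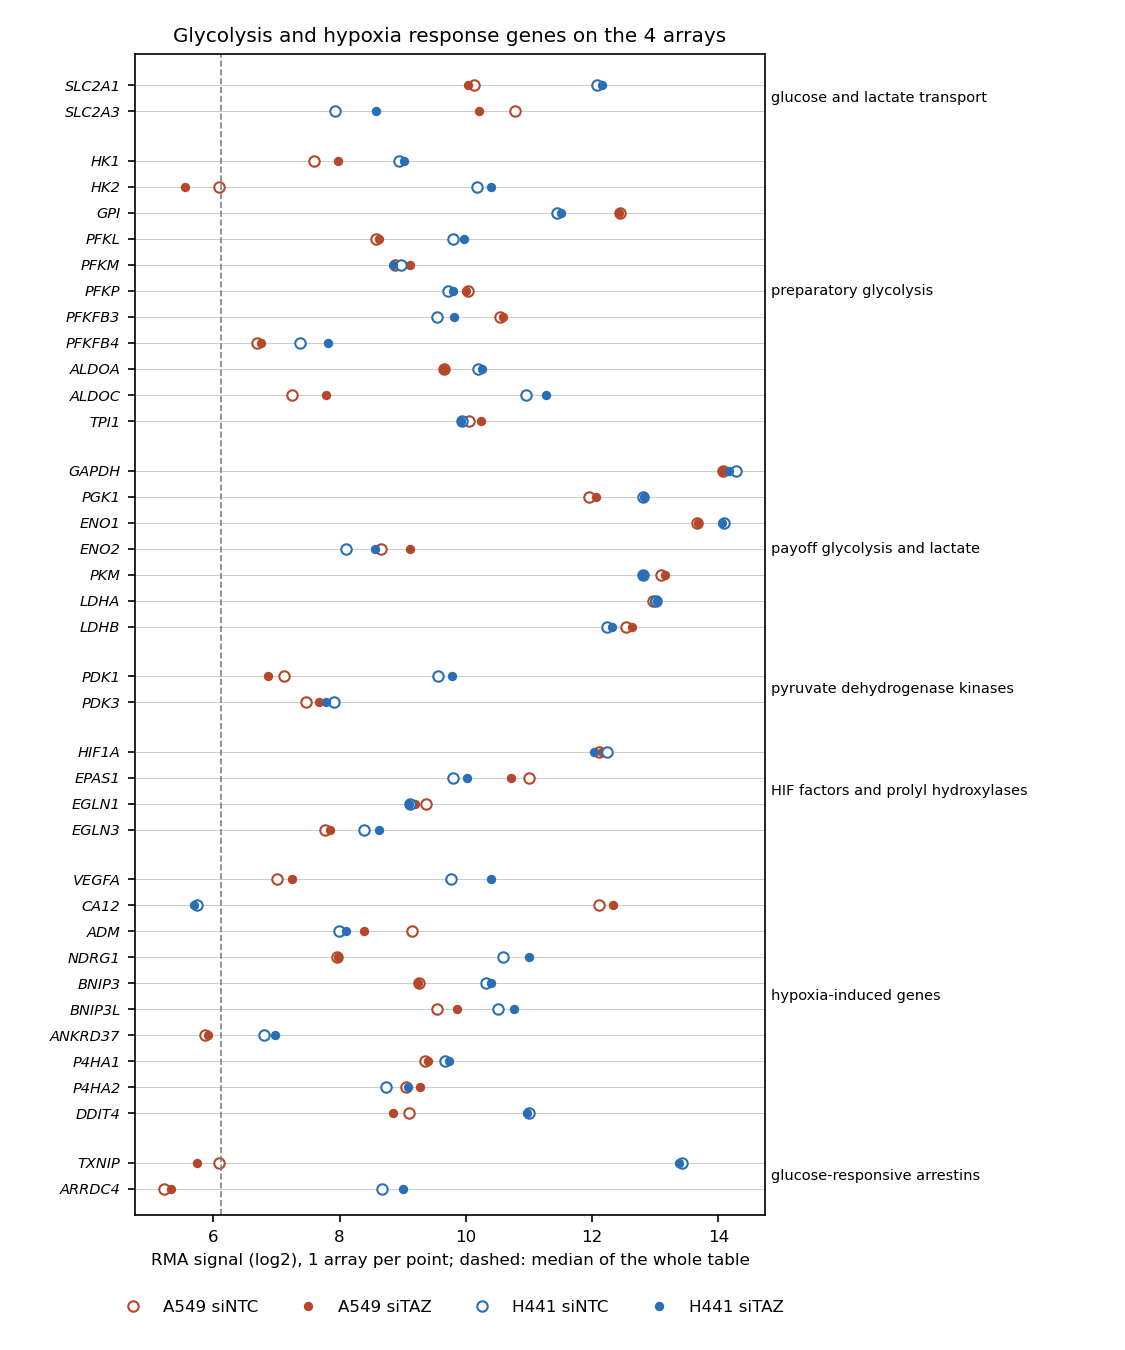
Log2 RMA signals (x axis) of the 38 glycolysis and hypoxia response genes (y axis, grouped by role), 1 point per array: open circles siNTC, filled circles siTAZ, red A549, blue H441. The dashed line is the median of the whole table (6.13). The colours lie far apart for TXNIP, CA12, HK2 and ALDOC, while open and filled circles of a line lie close together.

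ENO2 encodes gamma-enolase, the enolase isoform of neurons and neuroendocrine cells, which makes phosphoenolpyruvate. In A549 it read 8.66 under siNTC and 9.11 under siTAZ, and 8.10 and 8.56 in H441, in the same order. The siTAZ array was the higher of the pair in either line, 1.37-fold in A549 and 1.38-fold in H441. ENO2 rose by 0.46 ± 0.12 (SE, 2 lines, limma adjusted p = 0.0335). ALDOC encodes aldolase C, the brain-type isoform of the enzyme that splits fructose-1,6-bisphosphate. Its signal was 7.24 and 7.78 in A549 and 10.95 and 11.28 in H441, so that the A549 arrays were the low pair. ALDOC was 1.46-fold higher in A549 and 1.26-fold higher in H441, and rose by 0.44 ± 0.12 (SE, 2 lines, limma adjusted p = 0.0499). These calls were close to the threshold. Median centring of each array, quantile normalization, cyclic loess and the absence of the filter on dim genes each left 0 members called. The limma calls over all genes in these 4 settings were 0.97%, 0.592%, 0.071% and 0.256% higher and 2.19%, 0.529%, 0.0868% and 0.245% lower. With the stricter filter (1.16% higher and 1.36% lower) or the mean of probe sets (1.12% and 1.24%) ENO2 alone was called. With an intensity trend (2.18% and 2.48%) ENO2, ALDOC and VEGFA were called, and without the cell line term (0.0% and 0.0%) no gene was. After each array was centred on its median, the limma adjusted p was 0.0595 for ENO2 and 0.0861 for ALDOC, after quantile normalization 0.0767 and 0.0723, after cyclic loess 0.118 and 0.135, and without the filter on dim genes 0.0982 and 0.137. ALDOC also missed the threshold with the stricter filter (0.0559) and with the mean of probe sets (0.0529).

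Both enzymes also have a broadly expressed isoform in the set. ENO1, alpha-enolase, was 13.67 and 13.69 in A549 and 14.09 and 14.06 in H441, a difference of 0.02 and -0.03. ALDOA, aldolase A, was 9.66 and 9.65 in A549 and 10.19 and 10.26 in H441, a difference of -0.01 and 0.07. Neither ENO1 (limma adjusted p = 0.997) nor ALDOA (0.956) passed the test, and the difference between isoforms was not tested.

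Since ENO2 and ALDOC were the 2 called members, their promoter windows are shown, from 250 bases before to 50 bases after the RefSeq start site on GRCh38.p14, with the HIF core letters ACGTG or GCGTG (either strand) in capitals. The ENO2 window is chr12:6914330-6914629 on the plus strand and the ALDOC window chr17:28576846-28577145 on the minus strand.
ENO2: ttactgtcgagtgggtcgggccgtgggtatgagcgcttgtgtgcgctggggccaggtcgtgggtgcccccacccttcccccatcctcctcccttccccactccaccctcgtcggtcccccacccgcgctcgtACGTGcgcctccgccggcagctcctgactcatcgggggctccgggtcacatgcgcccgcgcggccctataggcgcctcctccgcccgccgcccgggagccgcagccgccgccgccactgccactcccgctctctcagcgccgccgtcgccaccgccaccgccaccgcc
ALDOC: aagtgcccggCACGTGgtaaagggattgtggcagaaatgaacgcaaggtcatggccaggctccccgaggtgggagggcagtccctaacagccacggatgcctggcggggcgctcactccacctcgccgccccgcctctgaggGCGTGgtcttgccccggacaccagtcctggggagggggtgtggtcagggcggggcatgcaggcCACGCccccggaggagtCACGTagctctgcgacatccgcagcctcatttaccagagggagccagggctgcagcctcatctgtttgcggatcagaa
The ENO2 window held 1 match, ACGTG at -118 to -114 from the start site. The ALDOC window held 5, of which a CACGTG at -240 to -235 reads as ACGTG on both strands and so counts as 2. The others were GCGTG at -108, CACGC at -45 and CACGT at -28, the last pair being matches on the other strand. Such letters are common: 48.4% of all 35116 windows held ACGTG or GCGTG. Of the 42 listed genes 37 matched this table, with 65 windows, and 34 of the 37 held the core in at least 1 window, beside 52.4% of all 27305 genes, which have fewer windows per gene. BNIP3L, NDRG1, SLC2A3, SLC16A1 and VEGFA did not match it. The matches describe letters and not bound sites.

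Among the transporters, SLC2A1 (GLUT1, the broadly expressed glucose carrier) was 10.13 and 10.03 in A549 and 12.08 and 12.15 in H441, a difference of -0.10 and 0.07. SLC2A3 (GLUT3, a high-affinity glucose carrier) was 10.78 and 10.21 in A549 but 7.93 and 8.57 in H441. It had the most opposed values of the set, 1.49-fold lower with siTAZ in A549 and 1.56-fold higher in H441, and their mean was 0.03 (limma adjusted p = 0.961). The difference of response between the lines cannot be tested with 4 arrays.

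The 11 preparatory-phase genes had a median difference of 0.06 in A549, over the 10 above the table median there, and 0.09 in H441, beside 0.0051 and 0.0048 for all genes. ALDOC was the called member. PFKFB4, a bifunctional enzyme that sets the level of the phosphofructokinase activator fructose-2,6-bisphosphate, was 6.69 and 6.75 in A549 and 7.37 and 7.82 in H441. Its difference was thus 0.06 in A549 and 0.45 in H441 (limma adjusted p = 0.368). Its relative PFKFB3 had 0.06 and 0.27. HK1, the broadly expressed hexokinase, was 7.59 and 7.98 in A549 and 8.94 and 9.03 in H441, with the larger difference in A549 (0.38 and 0.09, adjusted p = 0.413). HK2, the inducible hexokinase, was 6.09 and 5.56 in A549, below the table median on both arrays, and 10.18 and 10.39 in H441. The phosphofructokinase subunit PFKM had 0.23 and -0.12, while PFKL, PFKP, GPI and TPI1 lay between -0.03 and 0.18 in both lines.

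The 7 payoff-phase and lactate genes included the brightest of the set. GAPDH, often used as a reference gene, was 14.07 and 14.06 in A549 and 14.29 and 14.16 in H441. LDHA, the lactate dehydrogenase subunit that favours lactate, was 12.96 and 12.99 in A549 and 13.01 and 13.03 in H441. Without ENO2, the differences of GAPDH, PGK1, ENO1, PKM, LDHA and LDHB lay between -0.12 and 0.10. GAPDH, PGK1, ENO1, PKM and LDHA have processed pseudogenes of near-identical sequence, so these probe sets may also read other transcripts. The pyruvate dehydrogenase kinases, which keep pyruvate out of the mitochondrial acetyl-CoA pool, had opposite signs in the lines: PDK1 had -0.25 in A549 and 0.23 in H441, and PDK3 0.20 and -0.13.

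The oxygen-sensing genes did not pass the test. HIF1A was 12.11 and 12.16 in A549 and 12.23 and 12.03 in H441 (adjusted p = 0.876). EPAS1, which encodes HIF-2 alpha, was 11.00 and 10.72 in A549 and 9.80 and 10.01 in H441, with the lower value on the siTAZ array in A549 and on the siNTC array in H441. The hydroxylase gene EGLN1 had -0.17 and -0.01, and EGLN3, itself a HIF target, had 0.09 and 0.22. HIF proteins are set mainly by degradation, and protein was not measured here.

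Of the 10 measured hypoxia-induced genes limma called 0, and 4 reached an unadjusted p under 0.05, beside 13.2% of all genes: VEGFA, P4HA2 and BNIP3L with higher mean signal after siTAZ, and ADM with lower. It was 2 of the 10 after median centring, and 3 after quantile normalization or cyclic loess. VEGFA, the main angiogenic growth factor, was 7.01 and 7.25 in A549 and 9.77 and 10.40 in H441. It was 1.18-fold higher with siTAZ in A549 and 1.55-fold higher in H441, and the mean difference of 0.44 ± 0.12 (SE, 2 lines) had a limma adjusted p of 0.0618. With an intensity trend in the limma prior the p was 0.0078, and in the other settings it stayed above 0.05. P4HA2, a collagen prolyl hydroxylase subunit, was 9.06 and 9.28 in A549 and 8.73 and 9.08 in H441 (mean 0.29 ± 0.12 SE, 2 lines, limma adjusted p = 0.253). BNIP3L, a mitophagy receptor, was 9.54 and 9.85 in A549 and 10.51 and 10.76 in H441 (limma adjusted p = 0.254). These 3 genes had the siTAZ array above the siNTC array in both lines.

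ADM, the vasodilator peptide adrenomedullin, was 9.15 and 8.40 in A549 and 7.99 and 8.10 in H441. It was 1.69-fold lower with siTAZ in A549, the largest difference of the set within a line, and 1.08-fold higher in H441 (limma adjusted p = 0.336). In A549 ADM was the 1 member of 34 at least 1.5-fold lower, beside 1.07% of all genes, and 0 members were 1.5-fold higher, beside 1.76%. In H441 SLC2A3 and VEGFA were the 2 members of 37 at least 1.5-fold higher, beside 0.479% of all genes, and 0 were 1.5-fold lower, beside 0.974%. After median centring 0 members were 1.5-fold higher in H441, beside 0.224%, while SLC2A3 and VEGFA stayed so after quantile normalization (0.422% of all genes) and cyclic loess (0.433%). In A549 2 of 36 members were 1.5-fold lower after median centring (1.16%) or quantile normalization (1.25%), and 1 after cyclic loess (1.01%). NDRG1, a stress-induced differentiation gene, was 7.96 and 7.98 in A549 and 10.59 and 11.00 in H441, a difference of 0.02 and 0.41. BNIP3, P4HA1 and ANKRD37 had differences between -0.01 and 0.17, and DDIT4, an inhibitor of mTORC1, had -0.26 and -0.03. CA12, a membrane carbonic anhydrase, had 0.22 in A549 and was below the table median in H441.

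**Figure D2:**
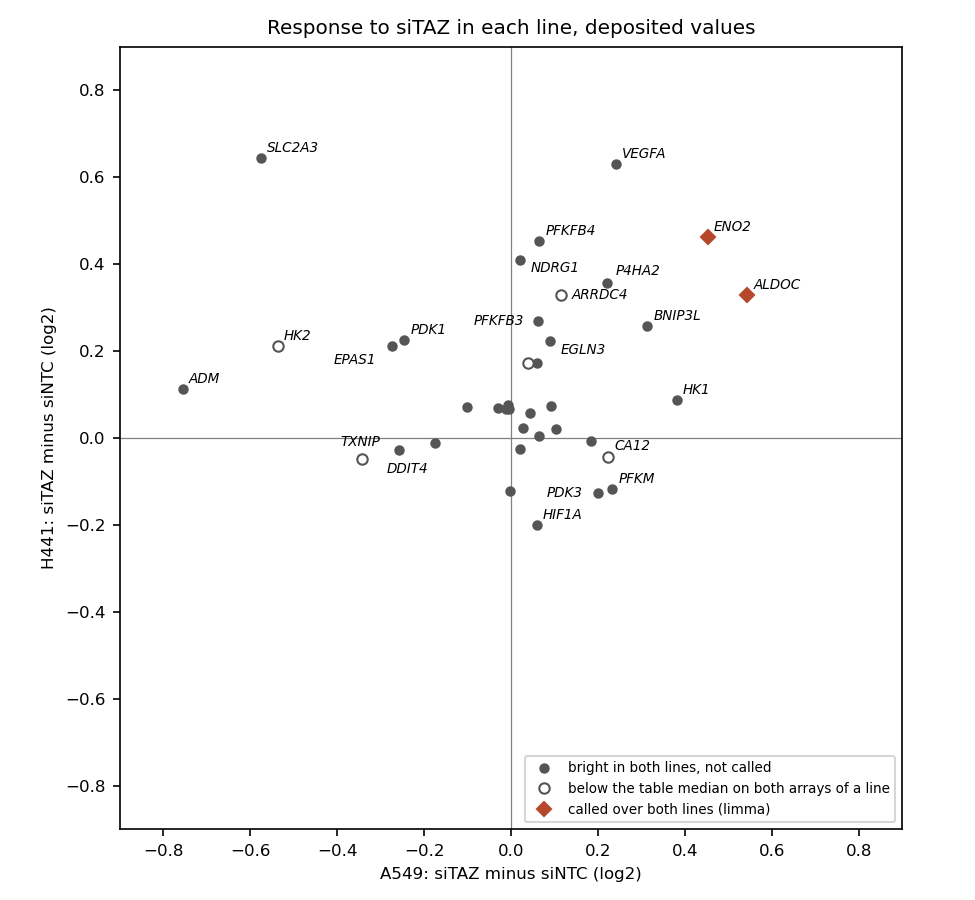
Difference siTAZ minus siNTC (log2) in A549 (x axis) and in H441 (y axis), 1 point per gene for the 38 members. Red diamonds mark the calls ENO2 and ALDOC, and open circles the 5 genes below the table median on both arrays of a line; genes over 0.2 from 0 in a line are named. SLC2A3 sits at -0.58 and 0.64, and ADM at -0.76 and 0.11.

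By direction alone, 22 of the 34 members above the table median in A549 had the higher value with siTAZ (64.7%), beside 50.9% of all genes. In H441 it was 28 of 37 (75.7%), beside 50.8%. The members' median difference was 0.06 in A549 and 0.08 in H441, beside 0.0051 and 0.0048. In both lines at once 18 of the 38 had the higher value with siTAZ, or 47.4%, beside 30.3% of the genes tested, and 4 the lower, or 10.5%, beside 27.2%. After median centring 13 were higher in both lines (34.2%, beside 20.2%) and 9 lower (23.7%, beside 37.0%). After quantile normalization 20 were higher (52.6%, beside 30.2%) and 1 lower (2.63%, beside 27.5%), and after cyclic loess 21 (55.3%, beside 30.9%) and 1 (2.63%, beside 26.8%). These members were listed with earlier results of the same arrays known, so the counts describe these 4 arrays.

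The H441 direction depended on how the arrays were scaled. Centring each array on its median moved the median of all genes in H441 from 0.0048 to -0.08. It left 18 of 37 members above 0 (48.6%), beside 33.2% of all genes, with a members' median of -0.0087. After quantile normalization 32 of 37 were above 0, beside 53.1% of all genes, with a median of 0.13, and after cyclic loess 33 of 37, beside 51.5%, with a median of 0.14. In A549 the members' median stayed between 0.04 and 0.06 under these scalings. Under all 4 scalings 18 members stayed above 0 in H441, among them SLC2A3, VEGFA, ENO2, PFKFB4, NDRG1, P4HA2, ALDOC and ARRDC4, and PFKM, PDK3 and HIF1A stayed below 0. Signal level differed between the set and the other genes as well. Among genes with a mean H441 signal from 8 to 10, 13 of 16 members were above 0 on the deposited scale with a median of 0.19, beside 2184 of 4810 genes in all and -0.02. From 10 to 12 it was 8 of 9 members and 0.21, beside 508 of 1327 genes and -0.05. From 12 up it was 5 of 9 members and 0.0040, beside 47 of 151 genes and -0.04. At the dimmest level, from 6 to 8, it was 2 of 3 members and 0.17, beside 3283 of 5584 genes and 0.05.

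**Figure D3:**
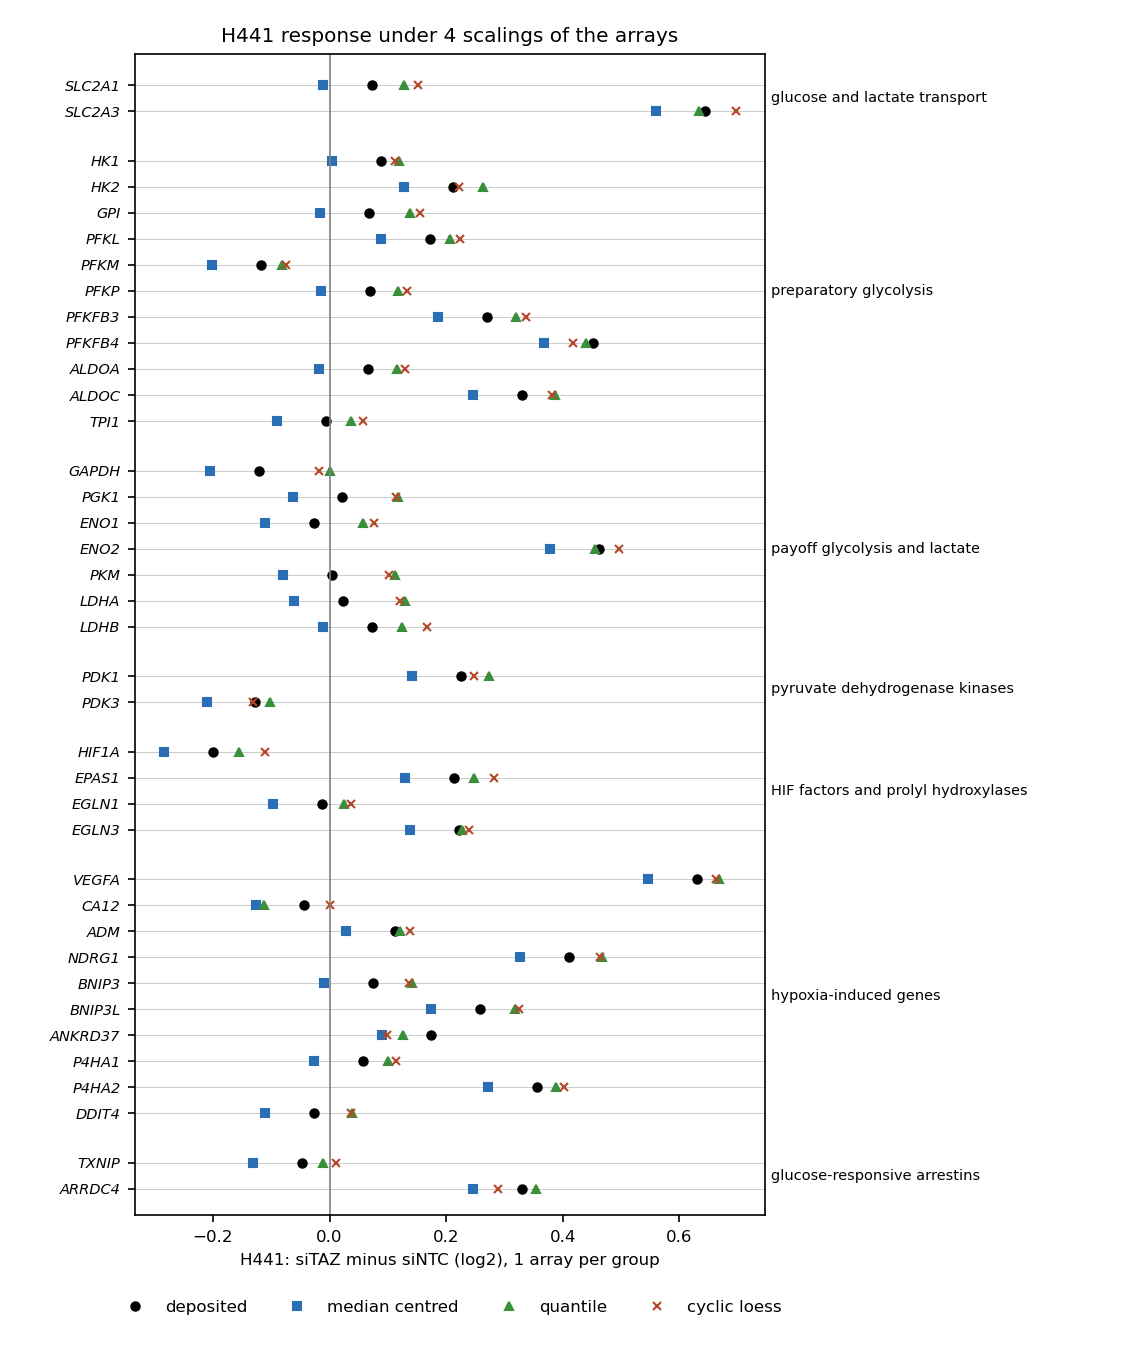
H441 difference siTAZ minus siNTC (log2, x axis) for the 38 members (y axis, by role) on the deposited values (circles), after median centring (squares), quantile normalization (triangles) and cyclic loess (crosses), 1 array per group. Median centring moves every gene left alike, and SLC2A3, VEGFA and ENO2 stay right of 0.3 under each.

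The lines differed from each other far more than siTAZ moved either. Between the siNTC arrays the members' median absolute difference was 0.95, beside 0.53 for all genes. At least 2-fold apart were 16 of the 38: 12 lower in A549 (31.6%, beside 18.1% of all genes) and 4 higher (10.5%, beside 7.26%). The arrays of the lines did not overlap for 35 members, with both A549 arrays lower for 23 (60.5%, beside 60.5% of all genes tested) and higher for 12 (31.6%, beside 23.4%). By the line coefficient of the limma fit, which sets 2 arrays of 1 line against 2 of the other, 21 members were lower in A549, beside 52.8% of all genes, and 11 higher, beside 19.0%. HK2, ANKRD37, TXNIP and ARRDC4 passed the filter at the table median through H441 alone and CA12 through A549 alone, so these 5 had to differ between the lines. Of the 33 members that reached that median in both lines, a count added after the values were seen, 9 were at least 2-fold lower in A549 between the siNTC arrays (15.3% of such genes in all) and 3 higher (3.65%). Of the same 33 limma called 17 lower, beside 52.5%, and 10 higher, beside 15.8%. The split of the calls over all genes moved with the scaling, since the median of all genes between the siNTC arrays went from -0.31 to -0.19 after median centring and to 0.01 after quantile normalization. After median centring the calls were 18 members lower and 13 higher, beside 41.4% and 24.5% of all genes. After quantile normalization they were 17 lower and 15 higher, beside 32.7% and 32.1%, and after cyclic loess 17 lower and 16 higher, beside 31.4% and 32.2%. Between the siNTC arrays, 9 members were at least 2-fold lower in A549 under all 4 scalings. These were SLC2A1, HK2, ALDOC, PDK1, VEGFA, NDRG1, DDIT4, TXNIP and ARRDC4. By the same measure 4 were at least 2-fold higher (SLC2A3, EPAS1, CA12 and ADM).

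TXNIP had the widest measured difference of the set. Its signal was 6.08 and 5.74 in A549, below the table median, and 13.42 and 13.37 in H441. Between the siNTC arrays it was 161-fold lower in A549, or 120-fold after cyclic loess, the least of the 4 scalings. Since TXNIP and ARRDC4 were below the table median on both A549 arrays, their folds rest on a dim signal and no test of the lines is given for them. ARRDC4, the other glucose-responsive arrestin, was 5.21 and 5.33 in A549 and 8.68 and 9.01 in H441, 11.0-fold lower in A549 with siNTC and 9.11-fold after quantile normalization. With siTAZ both stayed low in A549 and high in H441. The difference siTAZ minus siNTC was -0.34 and -0.05 for TXNIP (limma adjusted p = 0.530) and 0.11 and 0.33 for ARRDC4 (0.439).

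The promoter windows of this pair are shown since glucose acts on both genes through the carbohydrate response element, a pair of E-box-like half-sites, whose consensus was searched on both strands, and since ARRDC4 lacked that pair in its window. In the TXNIP window, chr1:145996530-145996829 on the minus strand of GRCh38.p14, capitals mark the pair. In the ARRDC4 window, chr15:97960453-97960752 on the plus strand, capitals mark ACGTG or GCGTG on either strand.
TXNIP: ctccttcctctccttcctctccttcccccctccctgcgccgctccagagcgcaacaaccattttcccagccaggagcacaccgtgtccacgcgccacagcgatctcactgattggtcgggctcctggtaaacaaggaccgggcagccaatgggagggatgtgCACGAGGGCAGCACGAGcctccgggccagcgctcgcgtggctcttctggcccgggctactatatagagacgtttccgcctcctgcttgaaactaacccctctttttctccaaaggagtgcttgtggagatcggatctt
ARRDC4: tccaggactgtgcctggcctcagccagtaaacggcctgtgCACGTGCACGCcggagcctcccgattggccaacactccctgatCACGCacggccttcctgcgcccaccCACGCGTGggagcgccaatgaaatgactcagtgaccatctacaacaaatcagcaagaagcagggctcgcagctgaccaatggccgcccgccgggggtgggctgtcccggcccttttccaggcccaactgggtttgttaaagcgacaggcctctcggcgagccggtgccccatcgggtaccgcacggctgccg
In TXNIP the pair read CACGAGGGCAGCACGAG at -88 to -72 from the start site. It was found in 0.501% of all 35116 windows and, of the 37 matched genes, in TXNIP and P4HA1. RefSeq lists a second TXNIP window, which held no such pair. The HIF core, not marked in TXNIP, also had matches there: CACGC at -163 and GCGTG at -54 in the window shown. The second window held ACGTG at -162. The ARRDC4 window held 6 matches to the HIF core, among them a CACGTG at -210 to -205, a full E-box found in 7.26% of windows.

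HK2 was also below the table median on both A549 arrays, and its 17.0-fold lower signal there with siNTC (13.7-fold after quantile normalization) is given with no test. Among members above that median in both lines, ALDOC was 13.1-fold lower in A549 between the siNTC arrays, VEGFA 6.74-fold, NDRG1 6.21-fold and PDK1 5.42-fold. SLC2A1 was 3.87-fold lower and DDIT4 3.72-fold. Their limma line coefficients all had adjusted p-values of 2.5e-13 or less. Of all genes that reached that median in both lines, the same test called 52.5% lower in A549 and 15.8% higher. With 1 array per line and siRNA, p-values of this line test, here and below, do not measure the spread between cultures of a line. After quantile normalization these 6 folds were 9.97, 5.34, 4.65, 4.24, 2.87 and 2.74, in the same order.

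CA12 went the other way. Its signal was 12.11 and 12.34 in A549 and 5.74 and 5.70 in H441, 82.8-fold higher in A549 with siNTC, where the H441 arrays were below the table median. SLC2A3 was 7.23-fold higher in A549 with siNTC and 3.10-fold with siTAZ, as the lines' values drew closer after siTAZ. EPAS1 was 2.30-fold higher in A549 with siNTC and 1.64-fold with siTAZ, and ADM 2.24-fold and 1.22-fold. The 2 glucose transporter genes thus had opposite order: SLC2A1 was lower and SLC2A3 higher in A549.

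Core enzymes differed in either direction. GPI, glucose-6-phosphate isomerase, was 1.98-fold higher in A549 with siNTC and 2.15- to 2.64-fold under the other 3 scalings (limma adjusted p = 1.2e-07 on the deposited scale). PGK1, phosphoglycerate kinase, was 1.80-fold lower (limma adjusted p = 1.5e-06) and 1.33-fold after quantile normalization. ALDOA was 1.45-fold lower (0.00014) and ENO1 1.34-fold lower (0.0038). ALDOA missed the threshold after quantile normalization (0.202) and cyclic loess (0.188), and ENO1 after median centring (0.0806), quantile normalization (0.0577) and cyclic loess (0.446). PFKP, PKM and LDHB were 1.24-, 1.23- and 1.23-fold higher in A549 and passed under each of the 4 scalings. LDHA was 1.03-fold lower in A549 with siNTC, TPI1 1.09-fold higher and GAPDH 1.16-fold lower, and none of these passed the limma test of the lines, with adjusted p-values of 0.747, 0.109 and 0.225. HIF1A also did not pass (adjusted p = 0.996), nor did PFKM (0.552) or EGLN1 (0.163). For LDHA and GAPDH the sign changed with the scaling, and LDHA passed as higher in A549 after cyclic loess (limma adjusted p = 0.037). TPI1, HIF1A, PFKM and EGLN1 passed after quantile normalization as higher in A549 (limma adjusted p from 0.00038 to 0.010). They also passed after cyclic loess (0.0011 to 0.018), and TPI1 (0.011) and EGLN1 (0.018) after median centring.

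**Figure D4:**
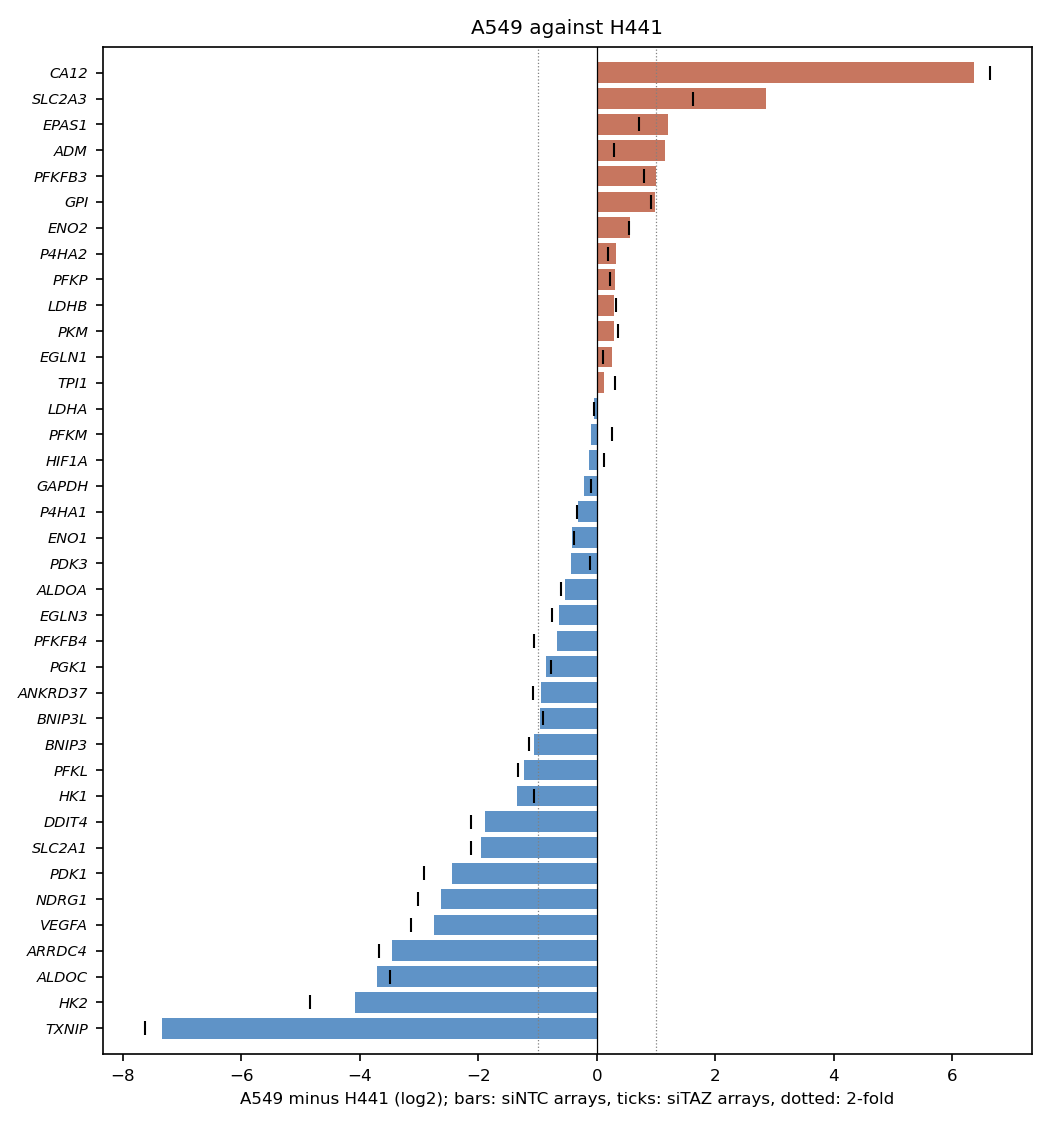
Log2 signal of A549 minus H441 for the 38 members on the deposited scale: bars show the siNTC arrays and black ticks the siTAZ arrays, 1 array per line and siRNA, dotted lines 2-fold. TXNIP is lowest in A549 at -7.33 and CA12 highest at 6.37, and the ticks lie close to the ends of most bars, with SLC2A3 and ADM the most displaced.

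Other genes of these pathways were taken from 4 lists. Of 39 tested genes of sugar and pyruvate metabolism limma called 0 after siTAZ, beside 1.19% of all genes higher and 1.29% lower. An unadjusted limma p under 0.05 was reached by 6 of the 39, beside 13.2% of all genes. SLC16A7, the monocarboxylate carrier MCT2, was 6.57 and 7.03 in A549 and 8.44 and 8.83 in H441 (limma adjusted p = 0.0542). ENO3, the muscle enolase, had 0.60 and 0.17 (0.118), and TALDO1, transaldolase of the pentose phosphate pathway, had -0.26 and -0.36 (0.204). Of 13 HIF regulators limma called 0, and 0 reached an unadjusted p under 0.05, beside the same shares of all genes. ARNT, the HIF partner, had -0.22 and -0.10, its paralog ARNT2 0.48 and -0.04, and CUL2, a scaffold of the ligase that degrades HIF alpha, -0.15 and -0.19.

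Of 24 further hypoxia-induced genes, TMEM45A rose and GPRC5A fell, while limma called 1.19% of all genes higher and 1.29% lower. Before adjustment, limma gave 5 of these 24 a p below 0.05, beside 13.2% of all genes. TMEM45A, a transmembrane protein gene, was 5.39 and 6.07 in A549, below the table median, and 8.44 and 8.75 in H441 (0.50 ± 0.12 SE, 2 lines, limma adjusted p = 0.0272). GPRC5A, a retinoic acid-induced receptor gene of lung epithelium, was 10.42 and 9.65 in A549 and 11.19 and 10.72 in H441 (-0.62 ± 0.12 SE, limma adjusted p = 0.0046). GPRC5A missed the threshold without the filter on dim genes (0.0502) and after cyclic loess (0.113). TMEM45A missed it without that filter (0.118), after quantile normalization (0.0723) and after cyclic loess (0.177). Both genes also missed it without the cell line term, where limma called no gene of the whole table. ERO1A, an endoplasmic reticulum oxidase, had -0.38 and -0.27 and did not pass (0.173). In A549 8 of 23 of these genes had the higher value with siTAZ, beside 50.9% of all genes, and the median was -0.07. In H441 it was 13 of 21, beside 50.8%, with a median of 0.04. After median centring it was 7 of 21 in H441, beside 33.2% of all genes, with a median of -0.05. Quantile normalization and cyclic loess each gave 14 of 21 there, beside 53.1% and 51.5%, with a median of 0.05. Of 5 tested genes of the MondoA group limma called 0, and 1 reached an unadjusted p under 0.05, beside 13.2% of all genes. This was TXN, the thioredoxin that TXNIP binds (-0.21 and -0.35, limma adjusted p = 0.269). MLXIP, which encodes MondoA, had 0.07 and 0.20, and ARRDC2 -0.18 and 0.03.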

How the data were processed

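The deposited values are log2 signals per probe set. RMA is named in the submitters' processing notes; the sources used here give no version or build. The log2 scale was read from the values (4.20 to 14.83 over 28869 probe sets). Probe sets with 1 symbol (19310) were named through the platform annotation, updated by Entrez identifier to GRCh38.p14. The brightest probe set of a gene was used. Within a line, genes whose higher array reached the table median (6.13) were kept, 11405 in A549 and 11911 in H441. Over both lines limma 3.58.1 (R 4.3.3, lmFit and eBayes, two-sided, line as a block) was fitted to 12740 genes whose highest value reached it, and tested on simulated data. Precision is limited by having 1 array in each group. Alternatives were 3 scalings, no filter, a filter at 7, the mean of probe sets, an intensity trend and no line term.

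The members and lists were chosen with earlier results of these data known. Any member could be named; of the other lists, the called genes and the 3 with the largest mean absolute difference were. Promoters are RefSeq windows of GRCh38.p14.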

Additional observations from a re-analysis of the deposited data

Results flagged for a closer look

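SLC2A3, the GLUT3 glucose carrier gene, stood out because siTAZ went with opposite shifts in the lines, 1.49-fold lower in A549 (-0.58) and 1.56-fold higher in H441 (0.64). No other member exceeded the set minimum fold in opposite directions. The difference between the lines was not tested, since the 4 arrays offer no spare degree of freedom for such an interaction.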

How the results depend on the processing

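With 1 array per group no replicate could be left out. The labels carry no replicate numbers to block on; the fit over both lines already pairs siTAZ with siNTC within a line, and the setting without the cell line term is its unpaired form. Against 2 calls among the members after siTAZ, limma made 0 after median centring, quantile normalization or cyclic loess, without the filter or without the cell line term (0 over the whole table, where 11 genes reached an unadjusted p under 0.05), 1 with the stricter filter or the mean of probe sets, and 3 with an intensity trend. The members' H441 median of 0.08 became -0.0087 after median centring, 0.13 after quantile normalization and 0.14 after cyclic loess, and moved by less than 0.05 in the other settings. The A549 median and the 16 members 2-fold apart between the siNTC arrays (15 to 17) held in the settings tried. The total of 32 line calls held too, with the fewest without the filter on dim genes (10 higher and 20 lower) and at most 33. Its split moved with the scaling, from 21 lower and 11 higher to 17 lower and 16 higher after cyclic loess. Among the 33 members not dim in either line, 12 were 2-fold apart and 27 had line calls, counts added after seeing the data. Over all genes, the siTAZ calls after median centring were 0.97% higher and 2.19% lower. After median centring, the siTAZ mean over both lines changed sign for SLC2A3 (-0.013), GPI (-0.015), PFKP (-0.027), ALDOA (-0.019), PKM (-0.013), LDHA (-0.021), PDK3 (-0.0098) and BNIP3 (-0.012), and LDHA between the lines (0.11). After quantile normalization it did for SLC2A1 (0.0089), ENO1 (0.069) and PDK1 (0.0091), and between the lines for LDHA (0.18), PDK3 (0.038) and P4HA1 (0.066). After cyclic loess it did for SLC2A1 (0.023), ENO1 (0.045), PDK1 (0.0062) and EPAS1 (0.0033), and between the lines for GAPDH (0.14), LDHA (0.29), PDK3 (0.056) and P4HA1 (0.074). The cause was not tested.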
